A study of Mus musculus with 8 samples.

Results

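The DNA replication and S-phase genes were 33 mouse genes, chosen by symbol for their known roles and not by a threshold on these values: licensing factors, parts of the replicative helicase, polymerase and fork proteins, enzymes of nucleotide supply, chromatin assembly factors and cell cycle regulators. All 33 were found among the 52097 genes of the expression table, and all 33 were among the 15121 genes tested, which reached 1 FPKM in 3 or more libraries. FPKM is a read level per kilobase of transcript and per 1000000 mapped fragments, so levels can be compared between genes.

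The libraries came from bone marrow cells sorted as CD48-CD150+LSK, the gate for haematopoietic stem cells, 3 days after the mice received pIpC, a double-stranded RNA mimic that sets off an interferon response. The 5 control libraries came from Nup214fl/fl mice, in which both alleles of the nuclear pore gene Nup214 carry loxP sites, and their genotype label names no Cre. The 3 knockout libraries came from Nup214fl/fl,Mx1-Cre mice, in which interferon switches on the Cre recombinase. Both groups received pIpC; as Cre was carried by the knockouts alone, its effects and those of Nup214 loss cannot be told apart. The Mx1 promoter responds to interferon in many cell types, so deletion need not be limited to stem cells. The labels give no age, sex or batch, and do not say whether each library is a separate animal, so p-values measure only the spread between these libraries. The comparison asks how transcript levels of the replication machinery differ between knockout and control cells of this gate.

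Replication starts in G1, when the origin recognition complex, CDC6 and CDT1 load the MCM helicase onto origins, and proceeds in S phase, when CDC45 and the GINS complex turn the loaded helicase into an active one. Many of the genes involved are transcribed together from late G1, under E2F transcription factors. Adult stem cells of the marrow are mostly quiescent and express these genes at lower levels than cycling progenitors, and interferon can bring them into cycle.

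The promoters of several members carry E2F-type words, which are shown as background on the E2F control named above. The shares below were computed without the expression values. RefSeq promoter windows (GRCm38.p6, 250 bases before to 50 after the start) were available for 28 of the 33 genes, as 31 windows. The words TTTGGCGC, TTTCCCGC, TTTGCCGC and TTTCGCGC were searched on both strands. At least 1 word was present in 11 of the 31 member windows, or 35.5%, against 2.26% of the 32851 windows in the genome. The genes with a word were Mcm3, Mcm5, Mcm6, Mcm7, Cdc6, Cdt1, Gins3, Pola1, Clspn, Uhrf1 and Dtl. CCAAT, the word bound by NF-Y, was in 67.7% of the member windows against 37.4% of all windows, and TTTGAA, a word of mitotic promoters, was in 12.9% against 17.9%. A match is a string of letters and not a measured site. The windows of 4 helicase subunits and of Dtl follow, 5′ to 3′, with the E2F-type words in capitals on whichever strand they lie. In Mcm5 and in the upstream cluster of Mcm6, words on opposite strands overlap and run together.
Mcm3, chr1:20820263-20820562, minus strand: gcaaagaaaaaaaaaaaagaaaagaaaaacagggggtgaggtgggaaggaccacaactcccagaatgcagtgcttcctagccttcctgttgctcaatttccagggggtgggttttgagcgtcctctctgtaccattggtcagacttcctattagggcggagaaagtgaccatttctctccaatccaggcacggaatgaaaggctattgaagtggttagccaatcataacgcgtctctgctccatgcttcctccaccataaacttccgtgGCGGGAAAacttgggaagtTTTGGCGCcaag
Mcm5, chr8:75109259-75109558, plus strand: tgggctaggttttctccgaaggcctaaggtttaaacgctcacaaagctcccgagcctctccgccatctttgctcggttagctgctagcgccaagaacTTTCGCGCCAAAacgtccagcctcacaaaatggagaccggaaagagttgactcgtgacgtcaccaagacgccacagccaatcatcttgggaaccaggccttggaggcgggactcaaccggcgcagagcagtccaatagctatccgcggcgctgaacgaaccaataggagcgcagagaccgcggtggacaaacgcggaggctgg
Mcm6, chr1:128359656-128359955, minus strand: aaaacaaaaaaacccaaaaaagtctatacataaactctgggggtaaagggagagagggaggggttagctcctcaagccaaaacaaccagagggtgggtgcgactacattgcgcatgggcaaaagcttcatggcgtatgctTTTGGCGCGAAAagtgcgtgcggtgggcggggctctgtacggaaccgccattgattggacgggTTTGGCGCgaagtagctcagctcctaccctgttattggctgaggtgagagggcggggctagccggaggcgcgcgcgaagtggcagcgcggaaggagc
Mcm7, chr5:138171834-138172133, minus strand: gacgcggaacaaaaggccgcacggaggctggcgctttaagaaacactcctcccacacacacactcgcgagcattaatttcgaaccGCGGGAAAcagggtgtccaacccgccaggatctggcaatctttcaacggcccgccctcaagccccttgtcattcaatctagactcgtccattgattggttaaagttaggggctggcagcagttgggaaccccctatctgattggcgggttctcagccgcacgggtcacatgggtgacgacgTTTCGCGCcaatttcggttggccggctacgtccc
Dtl, chr1:191575495-191575794, minus strand: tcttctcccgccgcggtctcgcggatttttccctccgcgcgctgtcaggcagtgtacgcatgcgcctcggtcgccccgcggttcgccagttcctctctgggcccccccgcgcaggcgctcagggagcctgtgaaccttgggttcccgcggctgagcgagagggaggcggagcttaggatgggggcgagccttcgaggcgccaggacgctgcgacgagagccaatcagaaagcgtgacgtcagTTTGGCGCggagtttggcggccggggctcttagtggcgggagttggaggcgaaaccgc
In Mcm6, words began at positions -110, -106 and -47 from the start, and in Dtl the single word began at -8.

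Nearly all members were lower in the knockout libraries as deposited. Of 33 members, 31 fell, 0 rose and 2, E2f1 and Ccne1, did not pass (limma, Benjamini-Hochberg adjusted over all genes tested, threshold 0.05). The share of all genes called lower was 59.5%, and of all genes called higher 8.91%, so most genes of these libraries fell and the members' count is to be read against that share. The median log2 fold change of the members was -1.39, against -0.81 for all genes tested, and 29 of the 33 lay below the median of all genes. A fitted fall of at least 2-fold was seen in 27 members, against 39.5% of all genes. In 29 members every knockout library lay below every control library, against 54.5% of all genes, and in 0 members did every knockout lie above, against 7.89%. Fewer cells in cycle, less of these RNAs per cell and a changed mix of cells in the gate cannot be told apart in bulk libraries.

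FPKM is set by the total of its own library, and that total changed in its make-up. Genes of the mitochondrial genome took 5.02% to 6.66% of summed FPKM in controls and 37.8% to 43.3% in knockouts. Each change was therefore also computed after 3 rescalings: median-ratio size factors, the non-mitochondrial total, and quantile normalization. The median of all genes was then -0.13, -0.17 and -0.11. Of the 33 members, 17 were called lower with median-ratio rescaling against 21.4% of all genes, 18 with the non-mitochondrial total against 22.6%, and 13 with quantile normalization against 20.4%. No member was called higher under any of these 3, where 16.5%, 15.4% and 16.7% of all genes were. The members' medians were -0.61, -0.65 and -0.53. The 13 members called lower under all 4 scalings, as 19.2% of all genes were, are Mcm2, Mcm3, Mcm5, Mcm6, Mcm7, Cdc45, Prim1, Pole, Rrm1, Chaf1a, Chaf1b, Uhrf1 and Dtl. Another 13 members were called lower only as deposited: Mcm4, Cdc6, Mcm10, Gins3, Pcna, Rfc4, Rpa2, Fen1, Rrm2, Tyms, Tk1, Slbp and Ccne2. After median-ratio rescaling their log2 fold changes ran from -0.53 in Rrm2 to 0.08 in Rfc4. The call of these genes rests on the scale, and a lost call does not show that a gene did not fall.

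**Figure D1:**
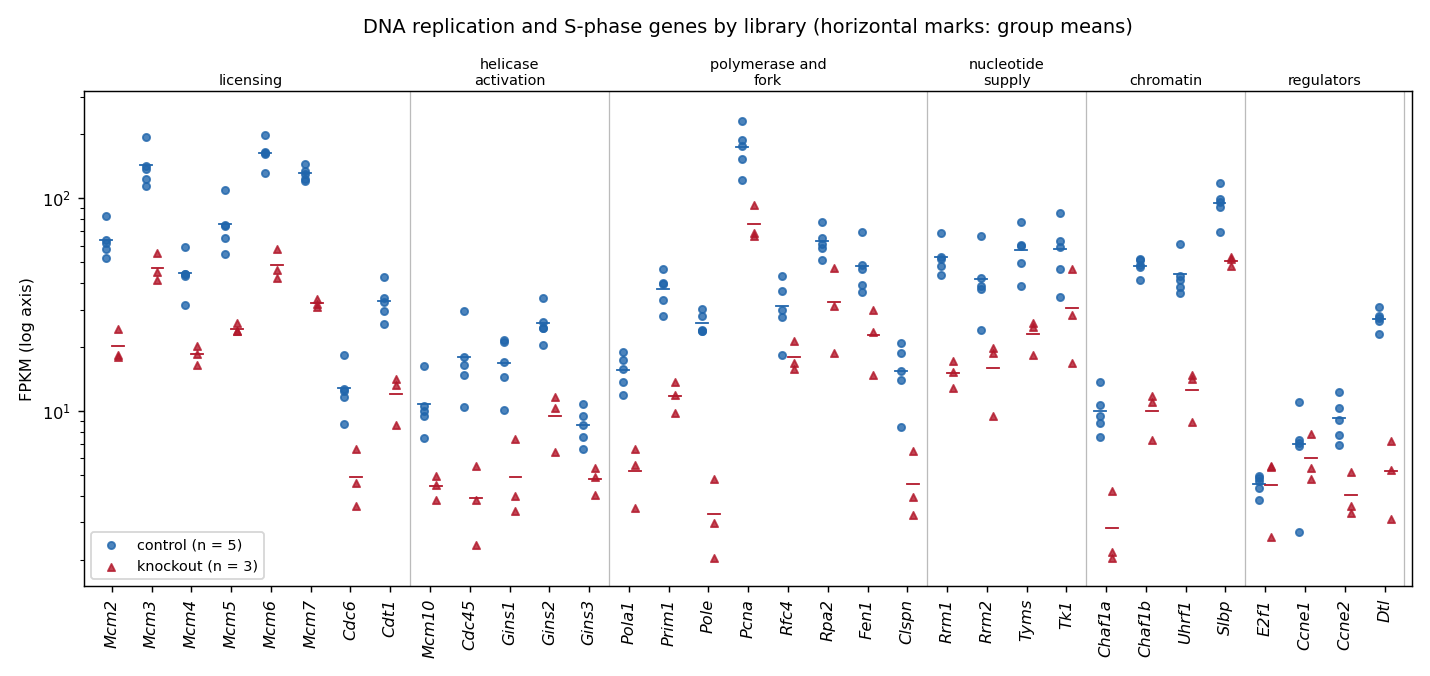
FPKM (log axis) of each member in each library, grouped by role; circles are 5 controls, triangles 3 knockouts and short lines group means. The triangles lie below all circles in 29 genes, and the ranges overlap in Rfc4, Tk1, E2f1 and Ccne1.

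The licensing genes fell together, with all 8 lower, against 59.5% of all genes, and a median log2 fold change of -1.56. After median-ratio rescaling 6 of the 8 were called lower, against 21.4% of all genes. Knockout means as deposited were at a median of 32.7% of the control means. Mcm7, a helicase subunit (chromosome 5, 138164583 to 138172422 on GRCm38), was at 120, 131, 134, 145 and 123 FPKM in control replicates 1 to 5 and at 33.7, 30.8 and 31.9 in knockout replicates 1 to 3. Values within each group were close together, and the groups lie far apart. Averaging 131 ± 9.79 in controls (SD, n = 5) against 32.1 ± 1.46 in knockouts (SD, n = 3), Mcm7 had a log2 fold change of -1.99 ± 0.12 (SE; adjusted p by limma = 3.99e-06), or -1.16 after median-ratio rescaling (adjusted p = 8.41e-05). Mcm7 also hosts Mir25 and Mir93 and shares exon sequence with Cops6 and Ap4m1 on the other strand. Mcm6 had the highest level of the helicase genes in controls, with 132, 163, 166, 198 and 162 FPKM, against 46.3, 42.1 and 57.7 in knockouts. Its log2 fold change was -1.73 ± 0.16 (SE; adjusted p by limma = 2.1e-05) and stayed below 0 after median-ratio rescaling, at -0.90 ± 0.15 (adjusted p = 0.00135). Mcm2, Mcm3 and Mcm5 had log2 fold changes of -1.61, -1.56 and -1.56 as deposited, and -0.79, -0.73 and -0.74 after that rescaling.

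Mcm4 had the smallest fall of the 6 helicase subunits, from 44.4 ± 9.74 (SD, n = 5) to 18.5 ± 1.9 FPKM (SD, n = 3). Its log2 fold change of -1.20 ± 0.19 (SE; adjusted p by limma = 0.000353) was -0.39 ± 0.18 after median-ratio rescaling (adjusted p = 0.109). Read as shares of the summed FPKM of Mcm2 to Mcm7, which do not change when a whole library is multiplied by 1 factor (quantile normalization does more than that), Mcm4 made up 6.23% to 7.66% in controls and 8.68% to 11.5% in knockouts. Mcm7 went the other way, from 18.4% to 23.8% in controls to 14.9% to 18.4% in knockouts. The order of the mean shares was Mcm6, Mcm3, Mcm7, Mcm5, Mcm2 and Mcm4 in controls, with 26.5%, 22.8%, 21.3%, 12%, 10.2% and 7.11%. Mcm3 and Mcm7 in that order lie within their spread of each other, at 22.8% ± 1.19 and 21.3% ± 1.92 (SD, n = 5). In knockouts the shares were 25.4%, 24.7%, 16.9%, 12.8%, 10.5% and 9.73% for the same genes.

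The loading factors Cdt1 and Cdc6 both fell as deposited. CDT1 brings the helicase to origins, and Cdt1 went from 32.8 ± 6.33 to 12 ± 2.98 FPKM, a log2 fold change of -1.39 ± 0.21 (SE; adjusted p by limma = 0.000251). After median-ratio rescaling it was at -0.60 (adjusted p = 0.0428), and with quantile normalization its adjusted p was 0.0838. Cdc6, its partner in loading, went from 12.8 ± 3.53 to 4.92 ± 1.57 FPKM, with -1.21 ± 0.25 as deposited (SE; adjusted p by limma = 0.00177) and -0.48 rescaled (adjusted p = 0.152). A pseudogene copy of Cdc6, Gm9430, was at 0.258 FPKM in controls and 2.04 in knockouts on average, so reads shared with it cannot be separated.

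The 5 genes that activate the helicase all fell, against 59.5% of all genes, with a median of -1.39. After median-ratio rescaling 3 of the 5 were called lower, against 21.4% of all genes. Cdc45, a subunit of the active helicase, was at 10.5, 16.4, 18, 29.6 and 14.9 FPKM in controls and at 5.52, 3.82 and 2.35 in knockouts. The control values spread widely, yet no knockout reached the lowest of them. The log2 fold change was -1.92 ± 0.32 (SE; adjusted p by limma = 0.000476), or -1.20 ± 0.32 after median-ratio rescaling (adjusted p = 0.0148). The GINS subunits differed in size of change. Gins1 and Gins2 fell by 1.61 and 1.39 on the log2 scale, while Gins3 went from 8.63 ± 1.62 to 4.77 ± 0.685 FPKM, a fall of 0.73 that is smaller than the median of all genes. Mcm10, which helps to start the helicase, was at 10.8 ± 3.29 and 4.43 ± 0.564 FPKM.

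Among the 8 polymerase and fork genes, Pole had the largest fall of all members. POLE is the catalytic subunit of the leading-strand polymerase, and Pole lies on chromosome 5 from 110286306 to 110337474. Its FPKM was 28, 24, 23.7, 30.2 and 23.8 in controls and 2.97, 2.03 and 4.81 in knockouts, which is 12.6% of the control mean. The highest knockout value lies far under the lowest control. The log2 fold change was -2.70 ± 0.21 (SE; adjusted p by limma = 1.08e-05), and after median-ratio rescaling it was -1.99 ± 0.23 (adjusted p = 0.000178). The subunits of the primase complex fell less: Pola1 was at -1.43 and Prim1 at -1.58 on the log2 scale, and Prim1 was also called lower under each rescaling.

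Pcna, which encodes the sliding clamp that holds polymerases on DNA, had the highest mean level of all 33 members in both groups. It was at 123, 188, 176, 230.2 and 154 FPKM in controls and 66.7, 92.9 and 68.8 in knockouts. All knockouts lay below all controls, by a log2 fold change of -1.17 ± 0.21 (SE; adjusted p by limma = 0.00076). After median-ratio rescaling the change was -0.34 ± 0.20 (adjusted p = 0.212). Its near-identical pseudogene Pcna-ps2 was listed at means of 3.65 and 3.27 FPKM. The 4 other fork genes were Rpa2, which coats single strands, Fen1, which trims flaps, Clspn, a mediator of the replication checkpoint, and Rfc4, a subunit of the clamp loader. Their changes were -1.01, -1.06, -1.56 and -0.72. Rfc4 overlapped between groups, with controls from 18.4 to 43.2 FPKM and knockouts from 15.7 to 21.4. Its call (adjusted p by limma = 0.0262) ended without control replicate 2 (adjusted p = 0.0566) and without knockout replicate 1 or 2 (0.07 and 0.0829). Its exons also overlap Eif4a2 on the other strand.

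The 4 nucleotide enzymes fell, where 59.5% of all genes did, with a median of -1.29. After median-ratio rescaling 1 of the 4 was called lower, against 21.4% of all genes. Rrm1, the large subunit, was at 43.7, 52.9, 48, 68.8 and 51.6 FPKM in controls and 15.3, 17.2 and 12.8 in knockouts. These ranges are well apart, with a log2 fold change of -1.74 ± 0.17 (SE; adjusted p by limma = 2.61e-05), and -0.93 after median-ratio rescaling (adjusted p = 0.00194). Rrm2, the small subunit whose level follows S phase, went from 41.9 ± 15.6 to 16 ± 5.66 FPKM. Its change was -1.33 ± 0.32 (SE; adjusted p by limma = 0.00451), and -0.53 rescaled (adjusted p = 0.219). Tyms, thymidylate synthase, went from 57.1 ± 14.4 to 23 ± 4.06 FPKM. Tk1, the thymidine kinase of cycling cells, was at 34.4, 59.1, 63.3, 85.6 and 46.4 FPKM in controls and 28.2, 46.8 and 16.8 in knockouts. Knockout replicate 2 reached the controls, and the call (log2 fold change -0.95 ± 0.35, SE; adjusted p by limma = 0.0353) ended when any of 5 libraries was left out: the adjusted p was 0.0616, 0.0655 and 0.0629 without control replicates 2, 3 and 4, and 0.0855 and 0.155 without knockout replicates 1 and 3.

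The chromatin genes had the lowest median of the 6 roles, at -1.64. Chaf1b and Chaf1a encode subunits of CAF-1, which places new histones behind the fork. Chaf1b was at 51.4, 47.5, 51.6, 48.4 and 41.5 FPKM in controls and 11, 7.29 and 11.8 in knockouts. Its controls varied little, and its log2 fold change was -2.17 ± 0.17 (SE; adjusted p by limma = 9.7e-06), or -1.38 ± 0.17 after median-ratio rescaling (adjusted p = 0.000286). Chaf1a went from 10 ± 2.35 to 2.81 ± 1.23 FPKM, and Uhrf1, which brings maintenance methylation to new DNA, from 43.9 ± 9.92 to 12.6 ± 3.21 FPKM. Slbp, which binds the stem-loop of histone mRNAs, stood apart from these: it was at 94.8 ± 17.3 and 50.9 ± 2.47 FPKM, a log2 fold change of -0.86 ± 0.17 (SE; adjusted p by limma = 0.00121) that was -0.04 after median-ratio rescaling (adjusted p = 0.869).

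The regulators split. Dtl encodes the receptor through which a ubiquitin ligase removes CDT1 in S phase, and lies on chromosome 1 from 191537356 to 191575544. It was at 23, 27.9, 27.3, 30.9 and 26.4 FPKM in controls and 3.12, 7.26 and 5.26 in knockouts. Knockout values were far below all controls, with a log2 fold change of -2.23 ± 0.22 (SE; adjusted p by limma = 2.67e-05), or -1.48 ± 0.22 after median-ratio rescaling (adjusted p = 0.000678). E2f1, an activator of the S-phase programme (chromosome 2, 154559407 to 154569892), was at 3.8, 4.86, 4.97, 4.69 and 4.36 FPKM in controls and 5.44, 5.5 and 2.56 in knockouts. Of these, 2 knockouts lay above and 1 below every control. Its log2 fold change was -0.06 ± 0.24 (SE; adjusted p by limma = 0.841) as deposited and 0.63 ± 0.25 after median-ratio rescaling (adjusted p = 0.072). Without knockout replicate 3 the rescaled change was 0.95 ± 0.17 and passed (SE; adjusted p = 0.00476).

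Ccne1, a cyclin E gene that drives entry into S phase (chromosome 7, 38097984 to 38107534), was at 2.71, 7.08, 7.28, 11 and 6.84 FPKM in controls and 7.8, 4.8 and 5.42 in knockouts. The knockouts lay within the control range. The log2 fold change was -0.12 ± 0.34 (SE; adjusted p by limma = 0.774), and 0.61 ± 0.33 after median-ratio rescaling (adjusted p = 0.176). Ccne2, the other cyclin E gene, went from 9.27 ± 2.12 to 4.02 ± 1.01 FPKM, with a log2 fold change of -1.03 ± 0.22 (SE; adjusted p by limma = 0.00232) as deposited and -0.32 rescaled (adjusted p = 0.303). The difference between the cyclin E genes was not tested.

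**Figure D2:**
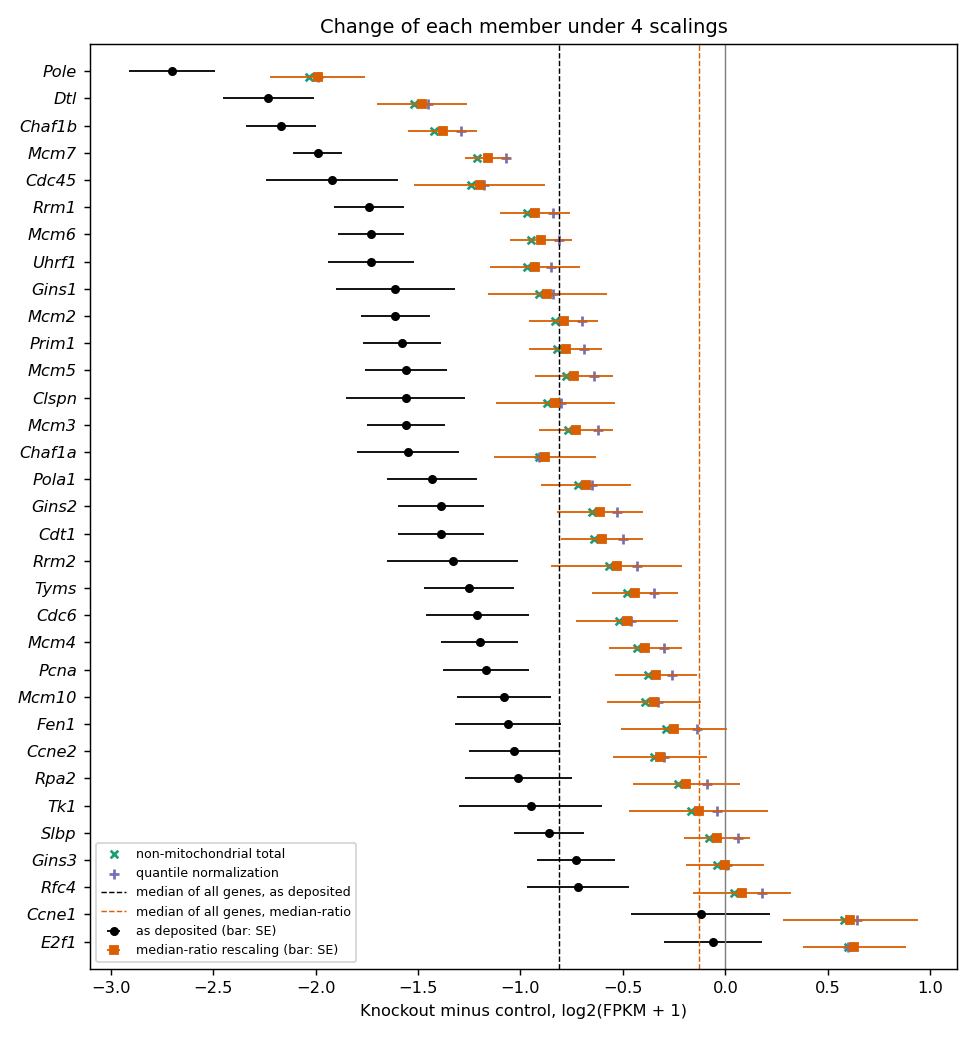
Log2 fold change of each member, knockout minus control, as deposited (black, bars SE), after median-ratio rescaling (orange, bars SE) and after the other 2 rescalings (crosses and plus signs, without bars); dashed lines are the medians of all genes, -0.81 and -0.13. Pole, Dtl and Chaf1b lie farthest left on every scale, and E2f1 and Ccne1 lie right of 0 after each rescaling without passing the test.

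The summed level of the members was nearly the same in the 3 knockouts. The sum of the 33 genes was 1246, 1636, 1621, 2095 and 1460 FPKM in control replicates 1 to 5 and 584.6, 601 and 585.6 FPKM in knockout replicates 1 to 3. Controls averaged 1612 ± 313 (SD, n = 5), knockouts 590.4 ± 9.19 (SD, n = 3). As a share of non-mitochondrial FPKM, the members took 0.165%, 0.198%, 0.198%, 0.253% and 0.199% in controls and 0.134%, 0.127% and 0.128% in knockouts. On that scale every knockout was still below every control, and the gap was narrower. No p is given for these sums, since the members were chosen as a list.

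Sums of the mitotic genes, which act after replication, were less even. The 16 mitosis genes summed to 290.5, 470.5, 469, 786 and 374.4 FPKM in controls and 236.2, 98.19 and 196.8 FPKM in knockouts. The mean ratio of mitotic to replication sum was 0.288 ± 0.0539 for the controls (SD, n = 5), against 0.301 ± 0.124 for the knockouts (SD, n = 3), and of the knockout ratios 0.404 lay above, 0.163 below and 0.336 within the control range of 0.233 to 0.375.

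**Figure D3:**
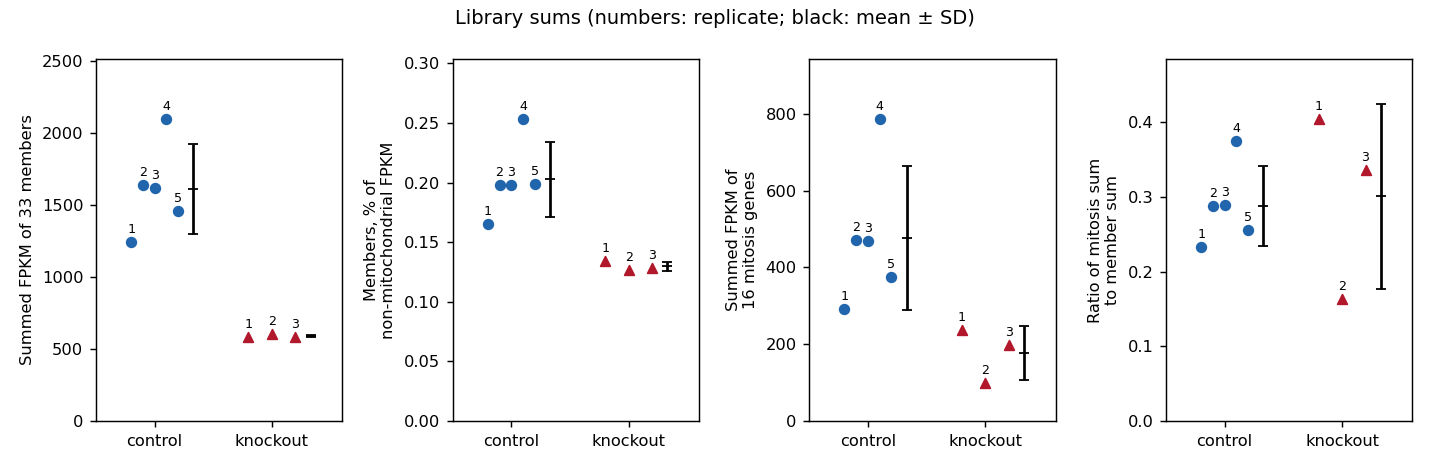
Library sums for the 33 members, their share of non-mitochondrial FPKM, the sum of 16 mitosis genes, and the ratio of mitosis to member sum; points are libraries numbered by replicate, bars are mean ± SD. The knockouts sit at 584.6 to 601 FPKM for the members, and their mitosis to member ratio spreads from 0.163 to 0.404.

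Within the control group most members shared an order. Control replicate 4 had the highest control value in 29 of the 33 members and control replicate 1 the lowest in 28. For all genes tested, replicate 4 was highest in 28.5% and replicate 1 lowest in 33.2%. Both held in 75.8% of members and in 15.6% of all genes. Of 8 progenitor markers 5 were higher and 3 lower in replicate 4 than in replicate 1, and of 12 stem cell markers 1 was higher and 11 lower, some by little. Prtn3, a protease of granulocyte precursors, was at 644 FPKM in replicate 1 and 1475 in replicate 4, and the progenitor marker Flt3 went the other way, from 234 to 149.9; the stem cell gene Hlf was at 57.7 FPKM in replicate 1 and 26.6 in replicate 4. The part of these markers in the order of the members was not tested. Leaving out both of these controls left the count at 31 of 33 members called lower.

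The make-up of the set, which multiplying a library by 1 factor does not change, differed between groups for some members; it was not computed after quantile normalization. Each member was divided by the summed FPKM of all 33 in its library and refitted, a setting chosen after the data were seen. Pole, Dtl, Chaf1b and Mcm7 were then called lower, where 5.98% of all genes were, and E2f1, Ccne1, Rfc4 and Slbp higher, where 29.2% of all genes were. Pole had a log2 fold change of -1.49 (adjusted p by limma = 0.00145) and Dtl of -0.95 (adjusted p = 0.0116). E2f1 was at 1.14 (adjusted p = 0.00936), Ccne1 was likewise higher (adjusted p = 0.0103) and Slbp at 0.54 (adjusted p = 0.0111). As shares, control libraries held 1.65% ± 0.341 Pole (SD, n = 5) against 0.556% ± 0.245 for knockout libraries (SD, n = 3), and Slbp 5.89% ± 0.285 and 8.62% ± 0.394. The groups did not overlap in the share of 11 members, 6 below and 5 above the controls, where 5.36% and 30.6% of all genes scaled in the same way lay below and above.

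**Figure D4:**
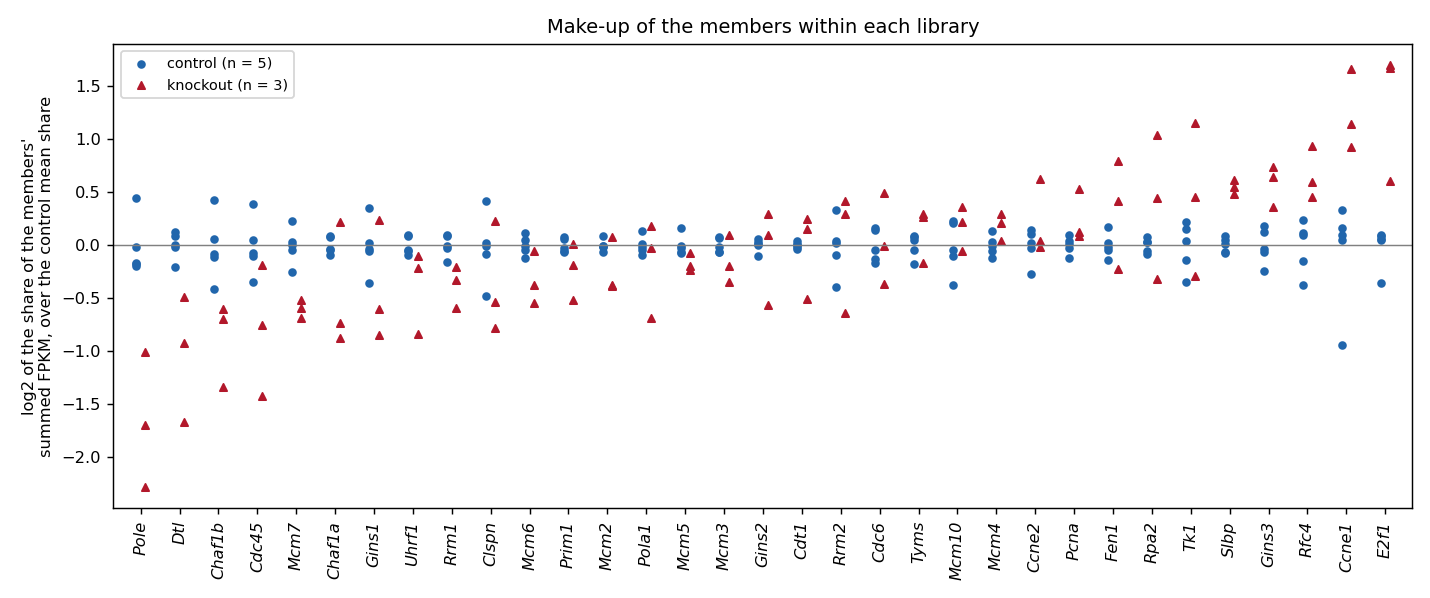
Share of each member in the summed FPKM of all 33, as log2 over the mean control share, for 5 controls (circles) and 3 knockouts (triangles), ordered by the knockout mean. Pole, Dtl, Chaf1b, Mcm7, Uhrf1 and Rrm1 lie below all controls, and Slbp, Gins3, Rfc4, Ccne1 and E2f1 above them.

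Members with and without an E2F-type word both fell. All 11 genes with a word in their window were called lower, with a median log2 fold change of -1.56 and a range of -2.23 to -0.73, and 8 of them after median-ratio rescaling, where the shares of all genes were 59.5% and 21.4%. Of the 17 genes with a window and no word, 15 were called lower, with a median of -1.17, and 6 after rescaling. The gap between these medians was not tested.

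The rest of the replication pathway was also mostly lower as deposited; the counts that follow are to be read against the 59.5% of all genes called lower as deposited and the 21.4% after median-ratio rescaling. All 27 other polymerase and fork genes fell, with a median of -1.46, and 18 of them were also called lower after median-ratio rescaling. Rfc2, a clamp loader subunit, went from 219 ± 8.83 to 42.6 ± 6.74 FPKM, a log2 fold change of -2.35 ± 0.13 (SE; adjusted p by limma = 3.23e-06). Rfc1, the large subunit of the same loader, fell by 2.08 and Rnaseh2a, which removes RNA from new DNA, by 1.80. Of 15 genes of origin recognition and firing 13 fell, 0 rose and 2, Recql4 and Donson, did not pass, with a median of -1.24. Topbp1, which helps to fire origins, and the origin kinase gene Cdc7 fell by 1.62 and 1.57, and the origin recognition subunit gene Orc3 by 1.40. Donson was at 8.78 ± 1.58 and 11.6 ± 5.8 FPKM and was called higher after median-ratio rescaling (1.01, adjusted p = 0.0334).

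Of 12 other nucleotide supply genes 10 fell and 2, Cmpk1 and Samhd1, did not pass, with a median of -1.06. Dctd, deoxycytidylate deaminase, went from 25.5 ± 4.51 to 2.75 ± 1.31 FPKM, a log2 fold change of -2.86 ± 0.24 (SE; adjusted p by limma = 1.4e-05). Dtymk and Dut, enzymes of the thymidine nucleotide pathway, fell by 1.93 and 1.73. Samhd1, which degrades deoxynucleotides and is induced by interferon, was at 66.5 ± 13.1 and 88.5 ± 12.6 FPKM (adjusted p = 0.0653) and was called higher after median-ratio rescaling (1.25, adjusted p = 0.000519), as was Cmpk1 (0.55, adjusted p = 0.0373).

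All 12 genes of S-phase kinases and the checkpoint fell, with a median of -1.27, and 4 after median-ratio rescaling, against 59.5% and 21.4% of all genes. Cdk2, the partner of cyclin E, averaged 58 ± 2.88 FPKM in controls against 16.3 ± 3.37 in knockouts, a log2 fold change of -1.78 ± 0.14 (SE; adjusted p by limma = 1.17e-05), while the checkpoint kinase genes Wee1 and Chek1 fell by 2.19 and 1.99. Of 17 genes of the E2F and RB families and their partners 13 fell, 0 rose and 4, E2f2, E2f5, E2f6 and Rb1, did not pass. The median was -0.82, close to that of all genes, and 2 were lower and 1, E2f2, higher after median-ratio rescaling, so the rescaled share lies below the 21.4% of all genes. The count of 13 was 8 without knockout replicate 3. Tfdp2, which encodes a dimer partner of E2F, went from 36.1 ± 3.12 to 7.68 ± 1.06 FPKM, Tfdp1 fell by 1.52, and Lin37, of the DREAM complex, went from 59 ± 5.55 to 27 ± 4.11 FPKM. Of the 16 mitosis genes 13 fell, 0 rose and 3, Plk1, Foxm1 and Ube2c, did not pass, with a median of -1.41. The spindle genes Tpx2 and Aurka fell by 1.61 and 1.72, and the centromere gene Cenpa by 1.58. Only 2 of 16, Tpx2 and Aurka, were called lower after median-ratio rescaling, also a share below 21.4%.

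The CDK inhibitors did not share this course. Of 7 listed genes 5 were tested; 1, Cdkn1a, rose and 2, Cdkn1b and Cdkn2d, fell. Cdkn1a, which encodes p21 and is a target of p53, was at 36.3, 43.2, 44.9, 34 and 29.7 FPKM in controls and 43.8, 57 and 57.2 in knockouts. The groups overlapped, and the call (log2 fold change 0.48 ± 0.17, SE; adjusted p by limma = 0.029) ended without control replicate 1, 4 or 5 and without knockout replicate 2 or 3, while after median-ratio rescaling the change was 1.30 (adjusted p = 0.000311). Cdkn1b, which encodes p27, went from 23.3 ± 4.1 to 15.1 ± 3.26 FPKM, a fall of 0.60 (adjusted p = 0.021) that became a difference of 0.20 upward after rescaling (adjusted p = 0.471) and lost its call without knockout replicate 2 (adjusted p = 0.08). Cdkn2d went from 63.3 ± 14.9 to 25.4 ± 12.2 FPKM. Cdkn2a was listed at 0 in all controls, at 1.1 FPKM in knockout replicate 1 and at 0 in knockout replicates 2 and 3. Cdkn2b was at 0.0 to 0.06 FPKM in controls and 0.53 to 0.91 in knockouts. Both were too low to be tested.

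**Figure D5:**
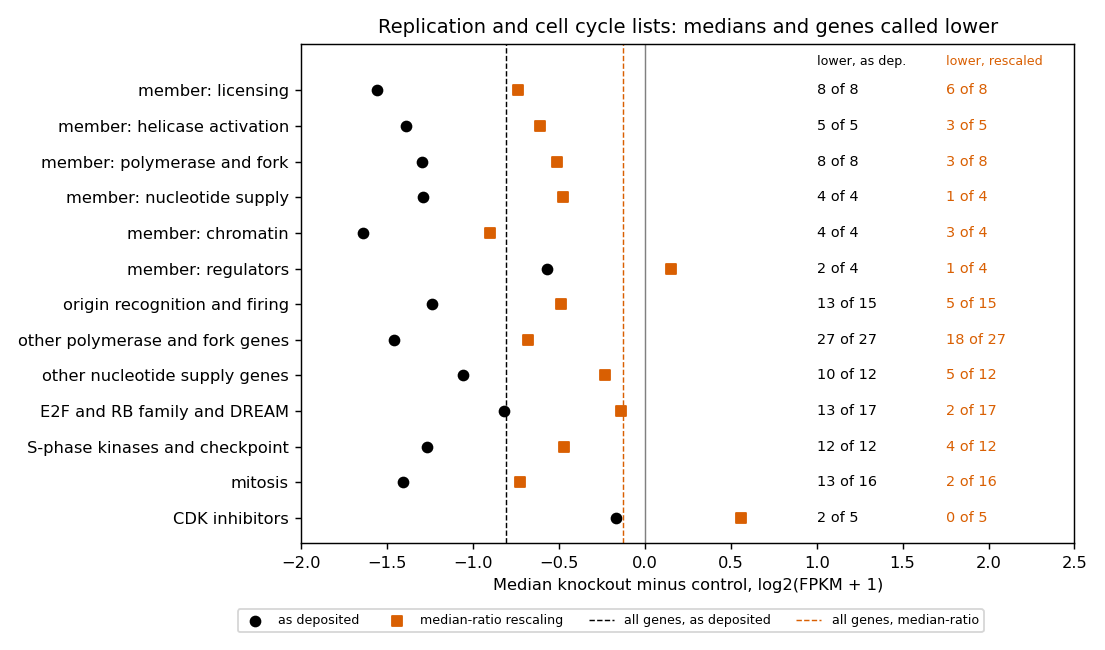
Median log2 fold change, knockout minus control, for the 6 roles of the members and 7 further lists, as deposited (black) and after median-ratio rescaling (orange), with the number of genes called lower on each scale; dashed lines are the medians of all genes. The regulators and the CDK inhibitors lie right of the median of all genes on both scales, the E2F and RB families lie on it, and the other lists lie left of it.

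As deposited, most stem cell and progenitor markers fell, as the members did, while most macrophage, T and NK cell, and stromal and endothelial markers rose. Of all genes, 59.5% were called lower and 8.91% higher as deposited, and 21.4% and 16.5% after median-ratio rescaling. The marker counts are to be read against these shares, the 8 of 12 stem cell markers above all. The targeted gene Nup214 was at 34.2 to 65.2 FPKM in controls and at 17.6, 9.66 and 18.2 in knockouts (log2 fold change -1.66 ± 0.25, SE; adjusted p by limma = 0.000289; exact two-sided permutation p = 0.0179, the smallest of 56 splits). After median-ratio rescaling the log2 fold change of Nup214 was -0.85 ± 0.26 (SE, adjusted p by limma = 0.0255). The medians of all genes were -0.81 as deposited and -0.13 after that rescaling. Of 12 stem cell markers 8 fell and 1, Fgd5, rose, and their summed level was 715 to 954 FPKM in controls and 347 to 441 in knockouts. All 8 progenitor markers fell, from sums of 2303 to 9842 FPKM to sums of 42.3 to 51.4. Of 11 macrophage markers tested 10 rose (sums 429 to 590 against 1839 to 7440.2 FPKM), of 12 T and NK cell markers 11 rose (364 to 851 against 1326 to 1919), and 9 of 12 stromal and endothelial markers were called higher and 2 lower (77.6 to 93.3 against 369.7 to 866). B cell markers (1 of 5 fell), neutrophil and monocyte markers (1 of 10 rose, 1 fell) and erythroid markers (2 of 8 rose, 3 fell) did not move in 1 direction. After median-ratio rescaling 7 of 12 stem cell markers were called lower and 3 higher, and all 8 progenitor markers were lower. Macrophage markers were then higher in 11 of 11, and T and NK cell markers in 12 of 12. Of 12 stromal and endothelial markers 9 were higher and 1 lower. The B cell list had 2 higher and 0 lower, neutrophil and monocyte 3 and 1, erythroid 3 and 2. Among the markers reported here, those listed at 0 were Marco in control replicates 1 and 4, Ncr1 and Adipoq in control replicate 1, Slc4a1 in control replicate 2, Ly6g in control replicate 4, and the stem cell gene Hoxb5 in knockout replicate 1. The part of these markers in the fall of the members was not tested.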

How the data were processed

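Bulk RNA-seq libraries were compared, 5 control and 3 knockout, grouped by the submitters' titles. The authors deposited FPKM values for 52097 genes and 8 libraries; per the submitters' processing notes, Bowtie 0.12.9, Cufflinks 2.1.1, HTSeq, DESeq2 and the build mm10 were used, without roles. Annotation release, filters and strand setting are not given in the sources used here. Per the labels' protocols, mRNA was amplified by Geo-seq, a low-input method.

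Counts were not used here. Low values of single-transcript genes fell on whole steps, within 0.15 fragments, for 77.8% to 90.4% of values (30% by chance for a step fixed beforehand). This gave an estimated depth, in units of 1000000 fragments, of 20.5 to 42.7 in controls and 16.1 to 22.7 in knockouts. The step of each library was chosen for its fit, so the 30% is not the chance level of the chosen step. At these depths the thinnest member value, Gins1 in knockout replicate 1, rests on about 70 fragments by the full length of its longest transcript. It rests on fewer if that length is shortened by the 225 bases fitted for this library.

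Knockout and control were fitted with limma 3.58.1 in R 4.3.3 (trend, robust) on log2(FPKM + 1), for the 15121 genes that reached 1 FPKM in 3 or more libraries, Benjamini-Hochberg adjusted over all of them at 0.05. A pseudocount of 1 understates the change of low genes. The fit was tested on simulated data, in 5 draws with 200 changed genes each. It called 38.4% of 2-fold and 79% of 4-fold changes, and 5.2% of its calls were false. A gene that did not pass may therefore still have changed. Alternatives were pseudocount, filter, 3 rescalings, variance model, replicate block and leaving out libraries. Symbols and loci came from GENCODE M21 (GRCm38), and promoter sequences from RefSeq (GRCm38.p6). Copies were found with BLAST+ 2.17.0 at 90% identity over 50% of a pseudogene: 11 members had one. Exons of 10 members overlap a gene on the other strand, and without a stated strand setting those reads cannot be separated.

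All 33 members were named, with the 3 genes of smallest p in each further list, any gene of a count of 5 or fewer, and Nup214. Members and lists were chosen with earlier results of these data known. Values of some single marker genes are not reported here.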

Additional observations from a re-analysis of the deposited data

Results flagged for a closer look

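In 3 of 71 items examined, 1 of the 5 control libraries lay far from the others, with a gap to its neighbour of more than 0.71 of the whole range. Chance alone flags about 1 in 20 such groups. Uhrf1, which maintains DNA methylation at forks, was at 61 FPKM in control replicate 4 against 36 to 43 in the other controls. Prtn3, of granulocyte precursors, was at 1475 FPKM in the same library. Rnaseh2a, a subunit of RNase H2, was at 93.6 FPKM in control replicate 5, the lowest of the controls.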

How the results depend on the processing

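Scaling decided most. The members called lower numbered 31 as deposited, 17 with median-ratio rescaling, 18 with the non-mitochondrial total, 13 with quantile normalization and 4 relative to the members' own sum; leaving out 1 library gave 29 to 31 as deposited and 13 to 19 with median-ratio rescaling (15 and 14 without knockout replicates 1 and 2), where 1 member, E2f1, was higher without knockout replicate 3 and 0 otherwise. The members' median was -0.61, -0.65 and -0.53 under the 3 rescalings, and that of all genes -0.13, -0.17 and -0.11, with -0.99 at a pseudocount of 0.1, 0.05 without a filter, -1.01 at FPKM of at least 5, and -0.86 to -0.81 with a library left out. Genes called higher numbered 2491, 2336 and 2530 under the rescalings, 3561 without a filter, 619 at FPKM of at least 5 and 847 to 1351 with a library left out; genes called lower numbered 3233, 3410 and 3079 under the rescalings. Causes were not tested.

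Some directions turned. Rfc4 was at 0.08, 0.04 and 0.18, E2f1 at 0.63, 0.60 and 0.60, Ccne1 at 0.61, 0.58 and 0.64 and Cdkn1b at 0.20, 0.16 and 0.28 under median-ratio, non-mitochondrial and quantile scaling, with Gins3 at 0.01 and Slbp at 0.06 under quantile normalization. With a library left out, E2f1 ranged from -0.20 to 0.23 (above 0 without knockout replicate 3) and Ccne1 from -0.37 to 0.05 (above 0 without control replicate 4 and, at 0.01, without knockout replicate 2).

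In the same order of rescalings, genes called lower were 5, 5 and 4 for origin recognition and firing (1 higher each; 0 to 1 higher with a library left out), 5, 6 and 5 for other nucleotide supply (2 higher each; 0 to 1 with a library left out), 2, 2 and 2 for the E2F and RB families (1, 1 and 2 higher), 4, 4 and 4 for S-phase kinases, 2, 2 and 2 for mitosis and 0, 0 and 0 for CDK inhibitors (2 higher by quantile normalization), and 16 for other polymerase and fork genes by quantile normalization. Without a filter 7 E2F and RB genes and 1 CDK inhibitor were lower. With a library left out the E2F and RB count was 8 to 11, and the CDK inhibitors had 0 to 1 higher and 1 to 2 lower.

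Pairing by replicate number was not seen in the values. Deviations of same-numbered controls and knockouts correlated at -0.0496, 0.0583 and -0.0659, and not every library correlated best with its own number. As the deviations were taken from means of 3 libraries a group, this check cannot show that pairing is absent. With the replicate block, 28 members were called lower, Rfc4, Tk1 and Gins3 losing their call, Ccne1 was at 0.13, and counts lower were 7 for the E2F and RB families and 7 for mitosis, with 0 CDK inhibitors and 1 other nucleotide gene higher. Depth limits the precision of the low members, and FPKM gives no counting interval.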
